A study of Mus musculus with 12 samples.

Results

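The transcripts of 8 ionotropic glutamate receptor genes were measured in the hippocampus of young adult mice: the AMPA receptor genes Gria1, Gria2, Gria3 and Gria4 and the kainate receptor genes Grik1, Grik2, Grik3 and Grik5. The rule takes the genes by name and uses no measured value, and Grik4 is not among them. They are 8 of 35580 annotated genes. They carry 56 of the 115270 transcripts deposited. Levels are in TPM, a measure of transcript abundance corrected for transcript length. All 8 gene sums and 49 of the 56 transcripts passed the filter on low values, which asks that 6 or more of the 12 libraries reach 0.1 TPM. RNA came from male C57BL/6 mice (C57BL/6J in the study's methods) killed at postnatal day 70, with 3 mice in each of 4 groups. Control mice had dams that drank water and were not separated. In the study's methods, unselected pups stayed with the dam while their selected littermates were away. Ethanol mice had dams that could choose to drink 10% ethanol in water. The labels place this in gestation, whereas the study's methods have it last until postnatal day 10, so ethanol was on offer during the first days of separation too. Stress mice were taken away from the dam and the other pups for 3 h per day on postnatal days 2 to 14, and ethanol + stress mice had both exposures. All mice shared the strain and age, intake by the dam was voluntary, the study drew the stressed pups from within litters, and the labels do not say which mice were littermates, so the p-values below measure the spread between these libraries.

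AMPA and kainate receptors are tetrameric cation channels opened by glutamate. AMPA receptors carry most of the fast excitatory current in hippocampal synapses, and the GluA2 subunit made from Gria2, once its messenger RNA is edited, keeps calcium out of the channel. Kainate receptors act on both sides of the synapse, with GluK5 from Grik5 serving as a partner that needs one of the principal subunits from Grik1, Grik2 or Grik3. Each AMPA receptor gene also holds a pair of alternative exons, called flip and flop, of which a finished message keeps a single exon. They encode a stretch of the ligand-binding domain that bears on how fast the channel desensitises.

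The flip and flop exons are shown for the 3 AMPA receptor genes of highest level because the share of each form rests on them. Each is 115 bases long and is read from the GENCODE vM21 transcripts on build GRCm38, 5′ to 3′ on the coding strand. Capitals mark the bases that differ between flip and flop of the same gene, 36 of 115 in Gria1 and Gria2 and 32 in Gria3.
Gria1 flop (chr11:57309769-57309883, plus strand): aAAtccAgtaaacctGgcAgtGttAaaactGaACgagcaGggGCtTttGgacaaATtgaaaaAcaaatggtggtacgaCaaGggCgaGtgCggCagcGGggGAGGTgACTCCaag
Gria1 flip (chr11:57310608-57310722, plus strand): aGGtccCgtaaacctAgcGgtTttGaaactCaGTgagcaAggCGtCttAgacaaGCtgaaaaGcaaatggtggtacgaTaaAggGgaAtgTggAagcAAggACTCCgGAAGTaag
Gria2 flop (chr3:80691320-80691434, minus strand): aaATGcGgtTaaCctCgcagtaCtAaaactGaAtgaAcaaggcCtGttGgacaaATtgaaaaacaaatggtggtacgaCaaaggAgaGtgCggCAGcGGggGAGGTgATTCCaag
Gria2 flip (chr3:80690404-80690518, minus strand): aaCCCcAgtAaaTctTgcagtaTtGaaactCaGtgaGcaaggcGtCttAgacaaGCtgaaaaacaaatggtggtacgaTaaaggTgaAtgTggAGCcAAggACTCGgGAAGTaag
Gria3 flop (chrX:41654810-41654924, plus strand): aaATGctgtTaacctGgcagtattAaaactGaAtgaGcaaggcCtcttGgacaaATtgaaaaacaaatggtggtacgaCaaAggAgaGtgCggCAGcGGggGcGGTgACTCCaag
Gria3 flip (chrX:41669501-41669615, plus strand): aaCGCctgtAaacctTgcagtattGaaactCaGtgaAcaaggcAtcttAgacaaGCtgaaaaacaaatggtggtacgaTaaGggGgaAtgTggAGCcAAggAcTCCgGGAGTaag
The flop exon comes first along the transcript in all 4 genes. In Gria4 the pair (flop chr9:4432773-4432887 and flip chr9:4427030-4427144, minus strand) differs at 31 bases. Between genes, the exons of the same form differ at 6 to 14 bases, fewer than the forms of any single gene differ from each other.

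The libraries held between 12016200 and 14915800 read pairs, as recovered from the steps of the low TPM values. Of the 12 libraries, ethanol 2, ethanol + stress 2 and ethanol + stress 3 stood apart. Their deposited values summed to between 1126490 and 1173650, against 889222 to 1024270 in the other 9. Their 20 most abundant transcripts took 27.2% to 29.2% of the sum, against 20.2% to 24.9%, and mitochondrial transcripts took 7.75% to 8.38%, against 5.76% to 6.97%. Markers of hippocampal cells were present in every library, with summed levels of 188 to 273 TPM for CA1 and 94.2 to 158 TPM for CA3 pyramidal cells. Dentate granule markers summed to 116 to 133 TPM in control, 88.7 to 119 after ethanol, 114 to 143 after stress and 111 to 121 after both exposures. Markers of neurons in general summed to 2511 to 2539 TPM in control, 2378 to 2801 after ethanol, 2497 to 2575 after stress and 2085 to 2671 after both exposures. Interneuron markers, which bear on Gria4, summed to 775 to 933 TPM in control, 784 to 847 after ethanol, 786 to 891 after stress and 771 to 801 after both exposures, with all 6 genes detected. Choroid plexus markers varied from 40.1 to 7228 TPM between libraries, with all 5 genes detected. Blood markers, all 4 of which were detected, summed to 1504 to 1900 TPM in control, 2966 to 6417 after ethanol, 2439 to 3192 after stress and 2287 to 6054 after both exposures. The part of these RNAs in the values below was not tested. In dissected tissue, fewer cells of a type and less RNA per cell cannot be told apart.

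With all transcripts of a gene summed, Gria2 was the most abundant of the 8 genes and Gria1 came next, in all 12 libraries. Complete coding transcripts held a mean of 74.3% of Gria2 and 97.6% of Gria1. By these alone Gria1 was above Gria2 in most libraries, though not in control 3, ethanol 3 or stress 3. Gria2 (chr3:80681450-80802835), whose product governs calcium entry, measured 348, 397 and 397 TPM in control, 315, 279 and 417 after ethanol, 342, 398 and 356 after stress and 414, 266 and 285 after both exposures. The ethanol and ethanol + stress groups held both the highest and the lowest libraries, and each overlapped control. Gria1 (chr11:57011387-57330244), whose subunit GluA1 is inserted into synapses during potentiation, measured 285, 308 and 303 TPM in control, 257, 231 and 295 after ethanol, 281, 321 and 274 after stress and 341, 230.1 and 239.8 after both exposures. Its lowest libraries were the same 3 as for Gria2: ethanol + stress 2, ethanol + stress 3 and ethanol 2. Gria3 (chrX:41400854-41678601), whose subunit pairs with GluA2 in many synaptic receptors, was at 67.3, 67.1 and 74.3 TPM in control, 62.6, 47.1 and 78.3 after ethanol, 59.5, 77.3 and 64.1 after stress and 71.5, 40.2 and 51.4 after both exposures. Gria4 (chr9:4417896-4796234), a subunit prominent in interneurons, was at 42.6, 39.8 and 46.7 TPM in control, 43.2, 35.9 and 50.2 after ethanol, 41.9, 37.4 and 44.6 after stress and 37.3, 34.3 and 36.9 after both exposures. It was the single AMPA receptor gene whose ethanol + stress libraries all lay below control. Its most abundant transcript, Gria4-203, which holds neither the flip nor the flop exon, divided likewise. It was at 22.7, 21.6 and 23.2 TPM after both exposures against 25.6, 24.2 and 28.8 in control. The other Gria4 transcripts overlapped control, Gria4-201 with a mean of 6.68 TPM against 6.67.

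Grik2 was the most abundant kainate receptor gene in control mice. Grik2 (chr10:49094833-49788766), which encodes a principal subunit of hippocampal mossy fibre synapses, measured 46.9, 41.8 and 45.2 TPM in control, 41.9, 51.4 and 43.5 after ethanol, 40.1, 45.1 and 41.3 after stress and 40.1, 47.1 and 50.7 after both exposures. The libraries in which it was highest were ethanol 2, ethanol + stress 3 and ethanol + stress 2, the ones in which the AMPA receptor genes were lowest. Grik5 (chr7:25009849-25072346), the high-affinity partner subunit, measured 37.4, 32.3 and 33.1 TPM in control, 40.6, 37.7 and 39.6 after ethanol, 29.2, 41.4 and 37.1 after stress and 35.1, 34.0 and 41.5 after both exposures. Its ethanol libraries all lay above control. Grik1 (chr16:87895900-88290265) stayed between 8.86 and 11.3 TPM in all 12 libraries, on 214 to 286 recovered read pairs. Grik3 (chr4:125490700-125714173), whose receptors need high glutamate to open, was lowest, at 7.69, 7.58 and 8.33 TPM in control, 6.98, 5.10 and 11.98 after ethanol, 7.36, 8.44 and 7.39 after stress and 8.27, 3.42 and 5.25 after both exposures. Relative to its level it spread more than the other genes, and its low libraries were again ethanol 2, ethanol + stress 2 and ethanol + stress 3.

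**Figure D1:**
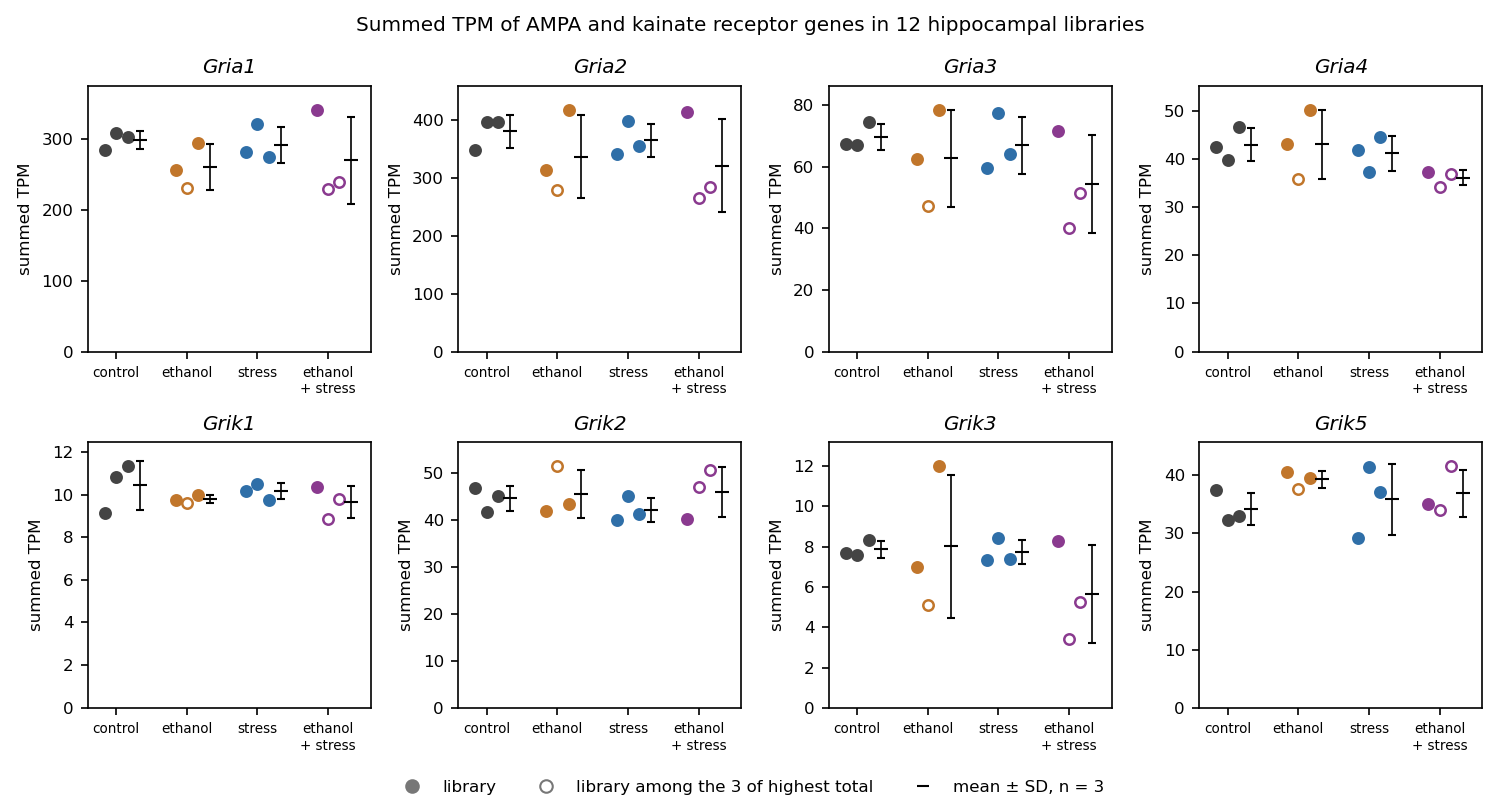
Summed TPM of each gene (vertical axis) in every library of the 4 groups (horizontal axis), with the group mean and SD beside the points; open points are the 3 libraries whose deposited values sum highest. The open points lie below all others in Gria1, Gria2, Gria3, Gria4 and Grik3 and above all others in Grik2.

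Ordered by the control mean, Gria2 (381 ± 28.4 TPM, SD, n = 3) and Gria1 (299 ± 12.2) stood far above Gria3 (69.5 ± 4.14), Grik2 (44.6 ± 2.60), Gria4 (43.0 ± 3.47), Grik5 (34.2 ± 2.77), Grik1 (10.4 ± 1.13) and Grik3 (7.87 ± 0.409). Neighbours in this order had separate ranges over the 12 libraries in 2 places, between Gria1 and Gria3 and between Grik5 and Grik1. With all transcripts summed, Gria2 exceeded Gria1 in 12 of 12 libraries although their ranges overlapped. Gria3 exceeded Grik2 in 10, Grik2 exceeded Gria4 in 7, Gria4 exceeded Grik5 in 9 and Grik1 exceeded Grik3 in 11 of the 12, so Grik2 and Gria4 could not be ordered beyond their spread. TPM are corrected for transcript length, which allows these comparisons between genes.

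The comparison of each treated group with control asks whether early ethanol, separation or both left a difference in adult receptor transcripts. No gene sum passed the threshold of an unadjusted p under 0.01 in limma in any of these comparisons, and none passed 0.05. Over all 18434 gene sums tested, 0.678% passed 0.01 and 3.63% passed 0.05 in ethanol, 0.510% and 2.40% in stress, and 0.971% and 5.37% in ethanol + stress mice. For the interaction, which tests whether the effect of both exposures departs from the sum of the single ones, the counts among the 8 genes were also 0 and 0, against 0.461% and 2.69% of all gene sums. With 12 libraries split by ethanol alone or by stress alone, no gene sum passed either threshold, against 1.12% and 5.79% of all gene sums for ethanol and 0.586% and 3.28% for stress. Without ethanol + stress 1, whose group then holds only libraries that stood apart, Gria1 was past 0.01 in the split by ethanol. Its log2 change was then -0.26 (limma adjusted p = 0.279), against -0.17 with all libraries. Without the libraries that stood apart it was 0.05.

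In ethanol against control mice, 6 of the 8 estimates were below 0, with a median log2 change of -0.07 against 0.02 over all gene sums. Gria1 had -0.20 (95% interval -0.52 to 0.12), Gria2 -0.19 (-0.58 to 0.19) and Gria3 -0.18 (-0.63 to 0.28), all as log2 changes of TPM + 0.5 with the same adjusted p = 0.997 in limma. Without ethanol 2 they were -0.12, -0.07 and 0.01, and without ethanol 3 -0.29, -0.36 and -0.35, none past 0.01. The highest estimate was that of Grik5, at 0.20 (-0.08 to 0.47, adjusted p = 0.997). Grik5 was the single member whose ethanol and control libraries did not overlap, as was so for 8.25% of all gene sums.

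In stress against control mice, all 8 estimates lay between -0.08 and 0.06, and no member's libraries were separate from control, against 7.20% of all gene sums. The widest interval was that of Grik3, from -0.68 to 0.63, and the narrowest that of Grik2, from -0.32 to 0.16. A change within these intervals could not be told from 0 with 3 mice a group.

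In ethanol + stress against control mice, 6 of 8 estimates were below 0, with a median of -0.21 against 0.02 over all gene sums. The smallest unadjusted p was that of Gria4, which missed both thresholds and whose mean was 36.1 ± 1.59 TPM (SD, n = 3) against 43.0 ± 3.47 in control, a log2 change of -0.25 (-0.51 to 0.02, limma adjusted p = 0.791). Its treated and control libraries did not overlap, as was so for 10.2% of all gene sums. The interneuron markers had their narrowest and lowest range in the same group, at 771 to 801 TPM, and their part in the Gria4 value was not tested. Gria3 had a log2 change of -0.39 (-0.85 to 0.07) and Grik3 of -0.52 (-1.18 to 0.13), each with adjusted p = 0.791 in limma. In both genes ethanol + stress 1 lay within the range of control and the other 2 libraries of its group below it. Without ethanol + stress 1 the Gria3 estimate was -0.61 (limma adjusted p = 0.235) and its unadjusted p was past 0.01, while without ethanol + stress 2 it was -0.19. The Grik3 estimate was -0.82 without ethanol + stress 1 and -0.24 without ethanol + stress 2, neither past 0.01. Gria1, at -0.17 with all libraries, had -0.35 without ethanol + stress 1 and -0.06 without ethanol + stress 2, and Gria2, at -0.27, had -0.46 and -0.15, none past 0.01. Removing each library's trend over transcript length left Gria1 at -0.09, Gria2 at -0.20, Gria3 at -0.33, Gria4 at -0.23 and Grik3 at -0.40, all short of the thresholds. Scaling the libraries to a common total moved estimates the other way, to -0.30 for Gria1 and -0.40 for Gria2, also short of the thresholds.

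**Figure D2:**
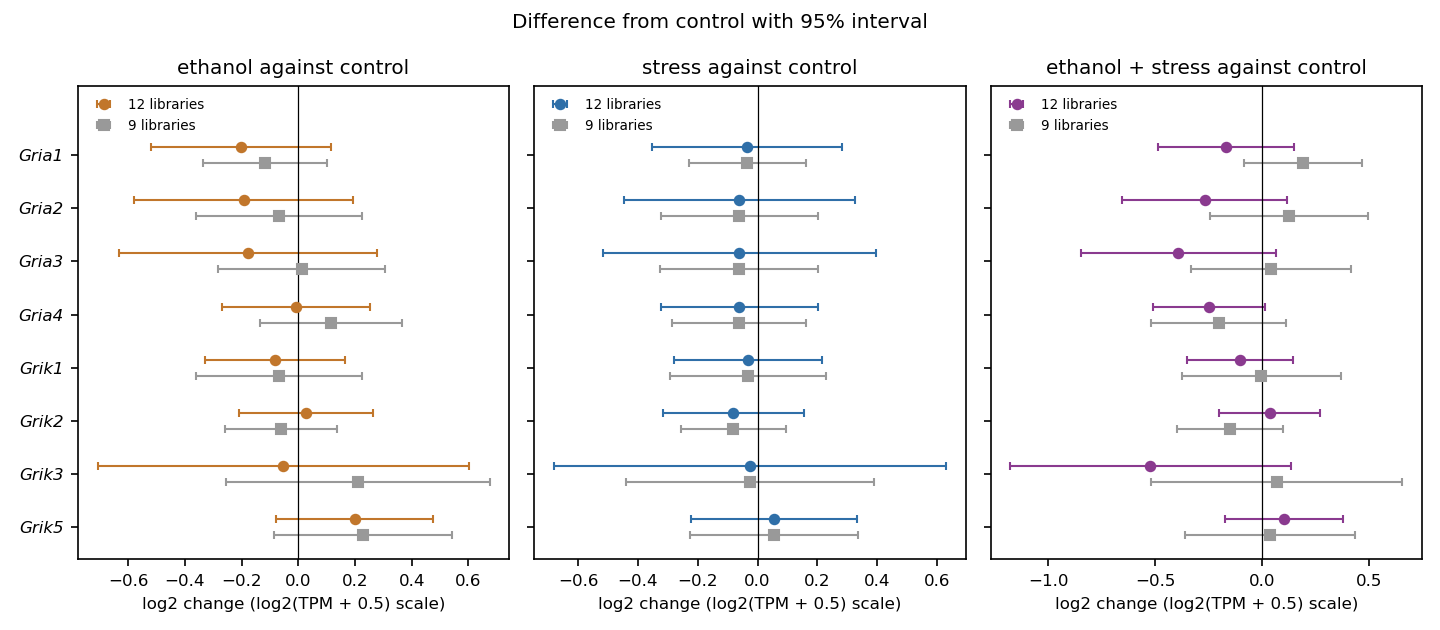
Log2 change from control of each gene with its 95% interval from limma (horizontal axis), for the 3 treated groups; coloured circles use all 12 libraries and grey squares the 9 libraries of lower total. All intervals include 0, and in ethanol + stress mice the estimates of Gria1, Gria2, Gria3 and Grik3 are below 0 with 12 libraries and above 0 with 9. The libraries left out all come from mice with ethanol and are the lowest for these genes, so leaving them out raises the estimates.

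The 3 libraries that stood apart were the lowest 3 of the 12 for each AMPA receptor gene. Gria1 was at 230.1 to 239.8 TPM in them and at 257 to 341 in the other 9, Gria2 at 266 to 285 against 315 to 417, Gria3 at 40.2 to 51.4 against 59.5 to 78.3, and Gria4 at 34.3 to 36.9 against 37.3 to 50.2. The 4 AMPA receptor genes together summed to 571 to 613 TPM in these libraries and to 677 to 864 TPM in the others. The kainate receptor genes together did not divide in this way, with 93.4 to 107 TPM against 86.9 to 105 TPM. Within the kainate genes, Grik3 was lower in the 3 libraries (3.42 to 5.25 against 6.98 to 11.98 TPM) and Grik2 was higher (47.1 to 51.4 against 40.1 to 46.9 TPM), while Grik1 and Grik5 overlapped. Length is taken here as the mean length of a gene's transcripts, weighted by their TPM. Genes over 4000 bases by this measure sat lower as a whole in the 3 libraries, with median log2 deviations of -0.12 to -0.08 against -0.06 to 0.11. Genes under 1000 bases sat higher, with 0.22 to 0.27 against -0.19 to 0.07. The part of this shift in the receptor values was not tested.

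Left with the 9 other libraries, ethanol + stress is a single library that is assumed to vary like the other groups. The ethanol + stress estimates were then 0.19 for Gria1, 0.13 for Gria2, 0.04 for Gria3 and 0.07 for Grik3, and -0.20 for Gria4. The libraries left out all came from mice with ethanol and were the lowest for these genes. Leaving them out was bound to raise these estimates, so their rise was set by the choice of libraries. The ethanol estimates were -0.12 for Gria1, -0.07 for Gria2 and 0.01 for Gria3. Grik5 was at 0.23 in ethanol mice. No gene sum passed the threshold in this fit.

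**Figure D3:**
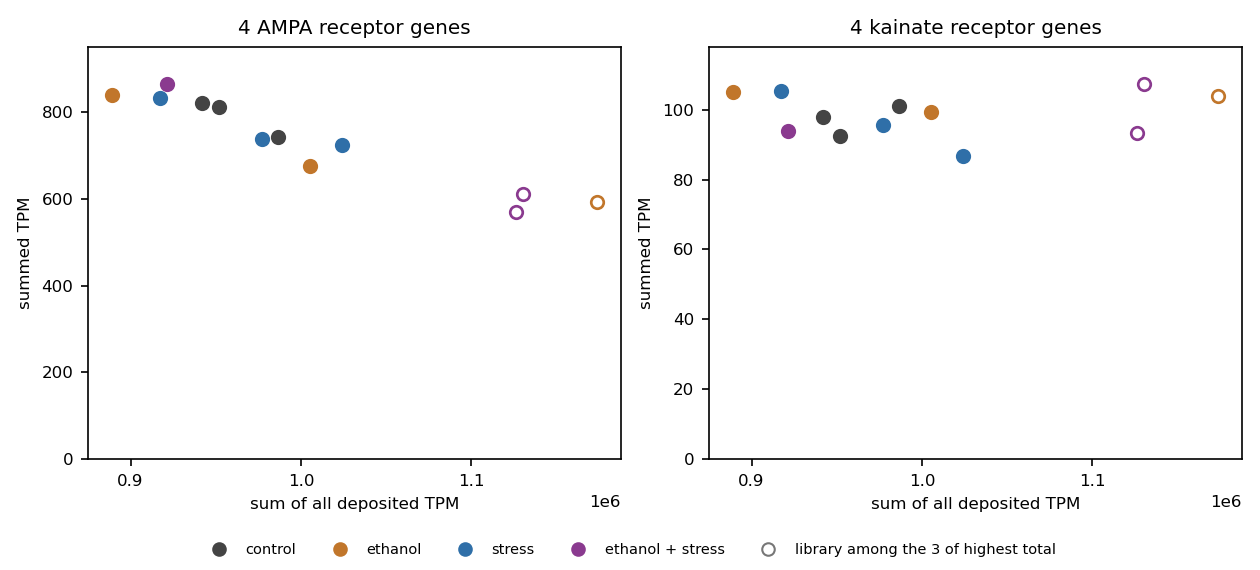
Summed TPM of the 4 AMPA and the 4 kainate receptor genes (vertical axes) against the sum of all deposited TPM of the library (horizontal axis), by group. The 3 open points lie between 571 and 613 TPM for the AMPA genes, below the other 9 libraries, and within the range of the others or just above it for the kainate genes.

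Ratios within a library compare members with each other without the scaling between libraries. The log2 ratio of Gria1 to Gria2 was -0.35 ± 0.05 in control, -0.36 ± 0.13 after ethanol, -0.32 ± 0.05 after stress and -0.25 ± 0.04 after both exposures (SD, n = 3). With all transcripts summed, Gria1 thus remained below Gria2 in all groups. The ratio of kainate to AMPA receptor sums was -3.03 ± 0.13 in control, -2.76 ± 0.24 after ethanol, -3.00 ± 0.06 after stress and -2.78 ± 0.37 after both exposures. Its ethanol effect over both postnatal arms was 0.24 (exact permutation p = 0.105, adjusted over 10 tests 0.417), and ethanol + stress 1 had the lowest ratio of all, -3.20. Grik2 made up 41.4% to 50.4% of the kainate receptor sum. None of the 10 exact tests of these ratios and shares had a p under 0.05 with all libraries and no replicate block. Without ethanol + stress 1 the ethanol effect on the kainate to AMPA ratio was 0.35 (exact permutation p = 0.01). The 3 highest ratios were those of the libraries that stood apart, ethanol 2 (-2.52), ethanol + stress 2 (-2.61) and ethanol + stress 3 (-2.51), and without ethanol + stress 1 its group holds only such libraries. For the Gria1 to Gria2 ratio, the ethanol effect was 0.03 and had an exact permutation p = 0.0400 without ethanol 3 (0.07) but was 0.012 without ethanol 2. The stress effect, 0.07, had an exact permutation p = 0.0400 without control 1 (0.08) but was 0.033 without ethanol 3.

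The genes differed in how their TPM were divided among transcripts. Gria1 was held almost wholly by its complete coding transcripts, 97.6% ± 1.05 of its TPM (SD, n = 12 libraries). In Gria2, retained-intron transcripts held 23.5% ± 2.81, most of it in Gria2-208, a transcript of 10 exons and 1975 bases. In Gria3, the transcript Gria3-206, which holds both cassette exons and is annotated as a target of nonsense-mediated decay, took 33.8% ± 7.24 and ranged from 23.3% to 48.1%. The most abundant Gria4 transcript was Gria4-203, an 11-exon form of 2338 bases with 1299 coding bases and neither cassette exon, at 61.8% ± 2.28 of the gene. Its share was 60.9% ± 0.790 (SD, n = 3) in control against 63.5% ± 0.681 after ethanol, with an ethanol effect over both arms of 2.04 percentage points (exact permutation p = 0.125). The effect was 2.98 points without stress 1 (exact permutation p = 0.0150) and 0.865 points without stress 2.

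Among kainate receptor genes, Grik3 has a single annotated transcript and Grik5-201 held 77.7% ± 6.65 of its gene. Grik2 was divided among Grik2-201 (33.1% ± 3.34), Grik2-202 (23.6% ± 4.12) and Grik2-210, an 8-exon form with 1014 coding bases that held 20.7% ± 1.504. The division of Grik1 could not be read at this depth. Its leading transcript, Grik1-201, ranged from 0.555% to 57.4% of the gene, and 9 of its 11 transcripts were at 0 in at least 1 library. Read pairs shared by transcripts of a gene are divided by an estimate, which leaves single transcripts less certain than gene sums.

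**Figure D4:**
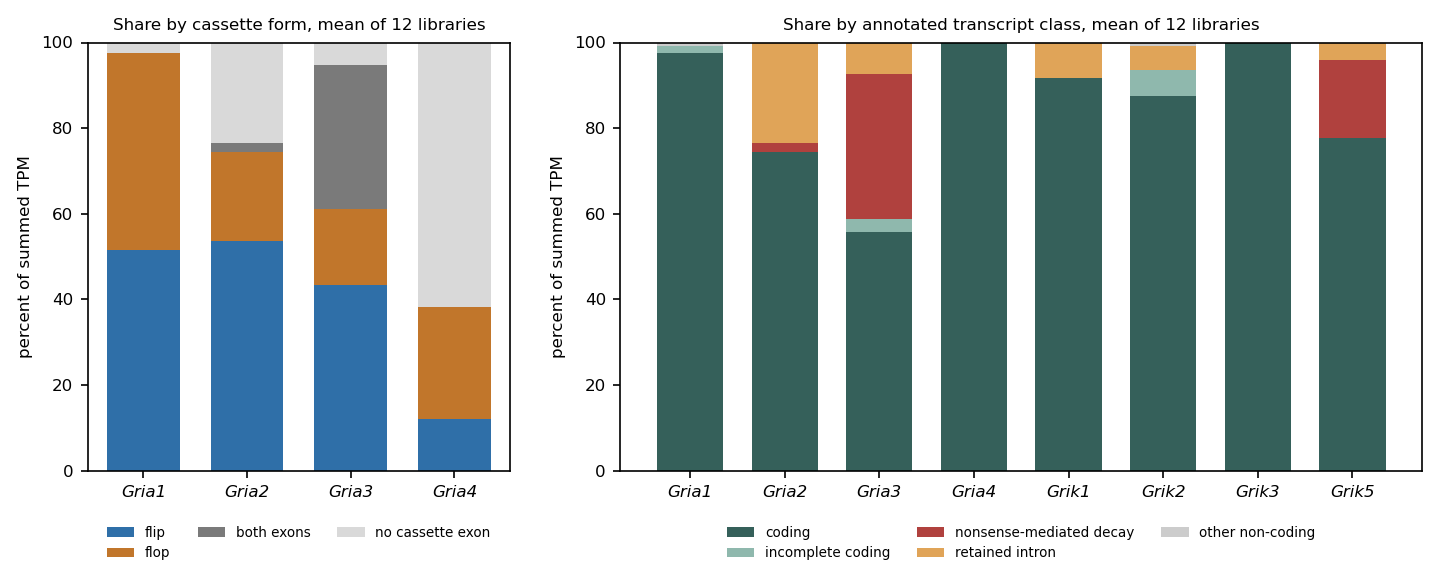
Mean share of each gene's TPM over 12 libraries (vertical axis, percent), by cassette form for the AMPA receptor genes (left) and by annotated transcript class for all 8 genes (right). Transcripts with neither cassette exon make up 61.8% of Gria4, and the transcript with both exons 33.8% of Gria3.

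The flip transcripts were Gria1-201, Gria1-204, Gria2-202, Gria3-201 and Gria4-202, and the flop transcripts Gria1-202, Gria2-201, Gria3-202, Gria3-208, Gria3-209, Gria4-201 and Gria4-204. The flip share, flip TPM as a percent of flip plus flop TPM, separated the AMPA receptor genes. It was 72.0% ± 1.80 in Gria2 and 70.7% ± 5.95 in Gria3, 52.8% ± 2.42 in Gria1 and 31.9% ± 6.86 in Gria4 (SD, n = 12 libraries). The range of Gria1, 48.2% to 57.9%, lay below that of Gria2, 69.3% to 75.0%, and above that of Gria4, 19.9% to 42.3%, whereas Gria3 (62.6% to 79.5%) overlapped Gria2. With complete coding transcripts alone Gria3 had 77.5% ± 5.39. Flip and flop transcripts accounted for 95.4% to 98.9% of Gria1, 68.3% to 78.8% of Gria2 and 50.4% to 71.1% of Gria3. The Gria3 share leaves out Gria3-206, which holds both exons. In Gria4 they accounted for 35.5% to 43.9%, so the Gria4 share describes the smaller part of that gene.

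The estimates do not rest on the exon alone. Of the 31-base words found in a single form, Gria2 flop had 6345 outside the cassette against 140 over it. Its transcript is 10371 bases long and that of flip 4026. Gria3 flip had 2103 such words outside the cassette and flop 659, while Gria1 flip had 270, Gria4 flop 206, Gria4 flip 3, and Gria1 flop and Gria2 flip none (0 each). Sequence outside the exon therefore enters the flip share of all 4 genes.

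With all libraries and no replicate block, no treatment effect on the flip share had an exact p under 0.05. In Gria3, flip transcripts made up 79.5%, 69.0% and 77.0% in control, 72.2%, 65.1% and 79.1% after ethanol, 66.5%, 67.7% and 75.0% after stress and 63.3%, 62.6% and 71.0% after both exposures. All groups overlapped in part, and the ethanol + stress group had the lowest mean, 65.6% ± 4.69 against 75.2% ± 5.45 in control. Its stress effect over both prenatal arms was -5.95 percentage points, -5.43 without ethanol and -6.48 with it (exact permutation p = 0.0800 over 400 arrangements, adjusted over 8 tests 0.640). Without ethanol 2 the effect was -7.72 points (exact permutation p = 0.0300) and without control 2 it was -7.48 points (exact permutation p = 0.0400). In the other 3 genes effects of ethanol or stress ran from -0.79 to 3.20 points with exact permutation p from 0.490 to 0.830. In Gria4, flip had 4.80 TPM and flop 12.04 TPM in control mice, and its share in control libraries alone ran from 19.9% to 39.0%. An exact permutation test of 3 against 3 cannot go below 0.1, and each treated group against control gave a p between 0.2 and 1 in all 4 genes.

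**Figure D5:**
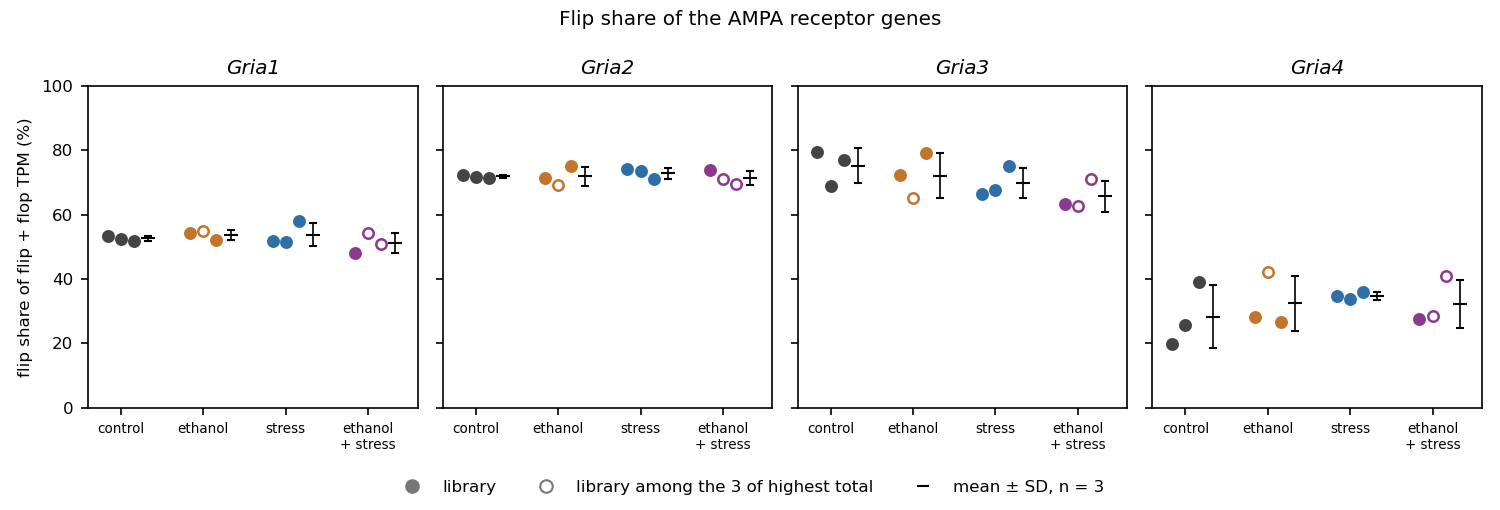
Flip TPM as a percent of flip plus flop TPM (vertical axis) in every library of the 4 groups, for the AMPA receptor genes, with the group mean and SD; open points are the 3 libraries of highest total. Gria2 stays between 69.3% and 75.0%, while Gria3 and Gria4 spread more.

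Of the 49 transcripts tested one by one, none passed an unadjusted p under 0.01 in limma in the 4 comparisons. At p under 0.05 there were 0 in ethanol, 1 in stress, 2 in ethanol + stress mice and 1 for the interaction. Over all 59852 transcripts, 1.26% passed 0.01 and 5.43% passed 0.05 in ethanol, 0.914% and 3.88% in stress, 1.21% and 5.57% in ethanol + stress mice, and 0.854% and 4.06% for the interaction. The full-length flip transcript Gria3-201, its gene's most abundant, was at 29.6, 28.9 and 39.8 TPM in control, 31.9, 17.1 and 44.0 after ethanol, 22.3, 32.4 and 30.8 after stress and 22.8, 14.7 and 20.8 after both exposures. Its ethanol + stress libraries all lay below control. Of the 49 transcripts, 2 did not overlap between these groups, both lower, against 10.2% of all 59852 transcripts in either direction. In ethanol mice 3 did not overlap with control, all higher, against 10.2% of all transcripts, and in stress mice 1, also higher, against 8.22%. Gria3-201 had a log2 change of -0.75 ± 0.31 (SE, limma adjusted p = 0.888). With only control and ethanol + stress mice in the model it was past 0.01 (limma adjusted p = 0.540). The other 2 transcripts were the incomplete Gria3-203 of 322 bases (log2 change -1.80 ± 0.72, SE), listed at 0 in ethanol + stress 1 and 2 and resting on a mean of 2.01 read pairs, and Grik1-210 in stress mice (1.81 ± 0.67), listed at 0 in control 1 and 3. The leading transcripts of the other AMPA receptor genes had ethanol + stress estimates of -0.23 for Gria1-201, -0.25 for Gria2-202 and -0.21 for Gria4-203, none past either threshold. Leaving out 1 library brought Gria1-201 past 0.01 in ethanol + stress mice without ethanol + stress 1 (-0.39). Gria3-203 was past it without ethanol + stress 3, where both libraries left are listed at 0, so that its fold is set by the 0.5 added. In stress mice Gria3-202 was past 0.01 without control 2 (-1.80) and Grik1-209 without control 1 (-1.95), the latter also for the interaction (2.18).

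Split by ethanol alone or by stress alone, no transcript of the 8 genes passed 0.01, against 1.47% of all transcripts for ethanol and 0.934% for stress. At p under 0.05 there were 2 for ethanol and 0 for stress, against 6.52% and 4.14% of all transcripts. They were Grik2-206, an incomplete transcript of 539 bases, with a log2 change of 1.65 ± 0.55 (SE, limma adjusted p = 0.686), and Grik1-209, with 1.19 ± 0.46 (limma adjusted p = 0.729). Both rest on few reads, with means of 7.39 and 33.6 read pairs. Grik2-206 was past 0.01 with a pseudocount of 1 (1.296) and without control 3 (1.903), stress 2 (1.91) or ethanol + stress 1 (1.94). Grik1-209 was past it without control 2 (1.51) or stress 3 (1.45), and Gria1-201 without ethanol + stress 1 (-0.28). For stress, Gria3-201 (-0.58) and Gria3-204 (0.88) were past 0.01 without ethanol 2, and Gria3-206 (0.50) was with the 9 libraries of lower total. Gria3-203 was past it for both splits without ethanol + stress 3.

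A list of 40 genes that work with these receptors was set beside them. It holds auxiliary subunits, the kainate receptor partners Grik4, Neto1 and Neto2, assembly and trafficking proteins, RNA editing enzymes and splicing regulators, and all 40 were tested. None passed an unadjusted p under 0.01 in limma in the 4 comparisons, and at p under 0.05 there was 1 in ethanol, 0 in stress, 3 in ethanol + stress mice and 1 for the interaction. These are 1, 0, 3 and 1 of 40 genes, where 3.63%, 2.40%, 5.37% and 2.69% of all gene sums passed. The median log2 change of the list was -0.03, -0.0017 and -0.10 in the ethanol, stress and ethanol + stress groups, against 0.02, 0.0042 and 0.02 over all gene sums. In ethanol mice the gene was Cacng7, encoding a TARP-family auxiliary subunit, with 0.28 ± 0.12 (SE, limma adjusted p = 0.997). In ethanol + stress mice Dlg4, encoding the postsynaptic scaffold PSD-95, had 0.23 ± 0.09, the scaffold gene Grip2 had 0.46 ± 0.19 and the splicing regulator gene Nova1 had -0.50 ± 0.18, each with adjusted p = 0.791 in limma. Nova1 was also the gene past 0.05 for the interaction, at -0.62 ± 0.26. Dlg4 measured 217, 219 and 206 TPM in control, 243, 270.4 and 220.2 after ethanol, 211, 212 and 228 after stress and 238, 248 and 267 after both exposures. Libraries with ethanol were the higher ones in both arms, although ethanol 3 lay below stress 3. The 3 highest libraries were ethanol 2, ethanol + stress 3 and ethanol + stress 2, the ones that stood apart. Split by ethanol alone, Dlg4 was the 1 gene of the 40 past 0.01, at 0.20 ± 0.06 (limma adjusted p = 0.760), against 1.12% of all gene sums. At p under 0.05 there were 4 of 40, against 5.79%, with Cacng7 at 0.22 and Grip2 at 0.35 beside Dlg4 and Grik4, a kainate receptor partner subunit, at -0.23. Split by stress alone, 0 of 40 were past 0.01 and 1 was past 0.05, against 0.586% and 3.28%, and that gene was Nova1 at -0.30.

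The 4 genes of highest level in the list were Camk2a, Nsf, Camk2b and Cnih2, with means of 582, 470.1, 405 and 356 TPM over the 12 libraries. Camk2a, a kinase gene of synaptic potentiation, measured 605, 553 and 478 TPM in control and 542, 688 and 760.1 in ethanol + stress mice. Nsf, whose product is a vesicle fusion ATPase that binds GluA2, measured 492, 518 and 506 TPM in control and 564, 329 and 346 in ethanol + stress mice. In both genes ethanol + stress 1 parted from the other 2 libraries of its group, and in opposite directions. After ethanol Camk2a measured 599, 667 and 462 TPM and Nsf 451, 355 and 577, so the 3 libraries that stood apart were the lowest 3 of the 12 for Nsf and the highest 3 for Camk2a. The log2 changes of these 2 genes in ethanol + stress mice were 0.28 and -0.34, and those of Camk2b and Cnih2 were -0.11 and 0.31, none past 0.05.

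Across the 12 libraries Gria1, Gria2, Gria3 and Grik3 varied together, which is given as a description since the libraries share their scaling and 3 of them stand apart. Pearson's r of log2(TPM + 0.5) was 0.96 between Gria1 and Gria2, 0.94 between Gria2 and Gria3 and 0.95 between Gria3 and Grik3. Gria4 was less close to Gria1, at 0.35, and closest to Grik3, at 0.76. Grik2 ran the other way, with -0.64 to Gria1 and -0.62 to Gria2, and Grik5 was near neither, with -0.19 and -0.13. Among 14398 genes with a mean of 1 TPM or more, the closest in pattern to Gria1 were Dgkg and Trim2 (0.99 and 0.98), to Gria2 Atp2b1 and Kcnd2 (0.99 and 0.99), to Gria3 Lrrc8b and Glg1 (0.99 and 0.99) and to Gria4 Sgtb (0.96). To the kainate receptor genes they were Yipf6 and 5730455P16Rik for Grik1 (0.94 and 0.90), Cfap100 and Fam227a for Grik2 (0.98 and 0.96), Sppl3 and Tbc1d24 for Grik3 (0.97 and 0.97) and Gm5373 and Gm42669 for Grik5 (0.93 and 0.90).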

How the data were processed

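Hippocampal RNA of 12 mice was sequenced in stranded libraries after removal of rRNA. The deposited values are a signal, TPM per transcript that the authors estimated with kallisto against mouse transcripts of GRCm38 and that had been scaled between libraries, as their unequal sums show. CASAVA, kallisto, sleuth and the build mm10 are named in the submitters' processing notes, and their versions are not given in the sources used here. Of 115270 transcripts, 113580 matched GENCODE vM21 by identifier, and TPM were summed per gene over them. All 56 transcripts of the 8 genes matched. A step worth 1 read pair was recovered from low values, with 76.9% to 80.7% of them whole within 0.1 of a step, and was used to state depth, not to test.

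Features that reached 0.1 TPM in 6 or more of the 12 libraries entered a two-sided test in limma 3.58.1 (R 4.3.3, lmFit and eBayes with trend), on log2(TPM + 0.5), with all 4 groups in 1 model and no replicate block. Adding 0.5 understates changes of low genes. Calls were made at an unadjusted p under 0.01, the threshold of the study, and adjusted p are Benjamini-Hochberg values over all features tested. Flip shares and ratios were compared with exact two-sided permutation tests, labels exchanged within each arm of the other factor. Flip and flop transcripts were assigned by their exons. Tables were joined in Python 3.11.15 with pandas 2.3.3 and numpy 2.4.6. The limma fit and the exact test were tested on simulated data.

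The genes and the lists of related and marker genes were chosen with earlier results of these data known. All 8 genes are named, as are the most abundant transcript of each, flip and flop transcripts, transcripts past 0.01 in a comparison, the 2 genes closest in pattern to each (1 of them is not reported here), and, of the related genes, those past 0.01 and the 4 of highest mean. Other transcripts that are named, the related genes past 0.05 and the ratios within a library were picked with their values in view.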

Additional observations from a re-analysis of the deposited data

How the results depend on the processing

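The counts of genes and transcripts past the threshold, all 0 as reported, were recomputed under other settings. These were pseudocounts of 0.1 and 1, a filter at 1 TPM, no filter, a common total and median-of-ratios size factors. Further ones were eBayes without trend, only the groups compared, a replicate block and a call at p under 0.05. Chosen after seeing the data were removal of the trend over transcript length, the 9 libraries of lower sum, and all alternatives for the ratios. Of 104 such counts 98 stayed at 0. At p under 0.05 the transcripts numbered 1 in stress, 2 in ethanol + stress mice and 1 for the interaction. With 9 libraries 1 transcript was past the threshold in stress and 1 in ethanol + stress mice, as was 1 in ethanol + stress mice with only the groups compared, where 1.101%, 1.01% and 1.72% of all transcripts were called. Leaving out 1 library at a time gave counts of 0 to 1 for gene sums in ethanol + stress mice and over both arms, and of 0 to 1 for transcripts in stress, in ethanol + stress mice and for the interaction.

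Of 288 gene-sum estimates under other settings, with protein-coding transcripts alone as a further setting, 13 changed sign. None of these was past 0.01 in limma. A common total gave Grik2 -0.054 in ethanol and -0.10 in ethanol + stress mice and Grik5 -0.031 in ethanol + stress mice, and removal of the length trend gave Grik3 0.029 in ethanol mice. With 9 libraries the ethanol estimates were 0.011 for Gria3, 0.12 for Gria4, -0.061 for Grik2 and 0.21 for Grik3, and the ethanol + stress estimates 0.19 for Gria1, 0.13 for Gria2, 0.042 for Gria3, -0.15 for Grik2 and 0.069 for Grik3. In each case the cause was not tested. The libraries left out of the 9 were the lowest for Gria1, Gria2, Gria3, Gria4 and Grik3 and the highest for Grik2. Leaving out 1 library moved the sums in ethanol + stress mice between -0.61 and -0.19 for Gria3 and -0.82 and -0.24 for Grik3. Estimates whose sign depended on 1 library ran in ethanol mice from -0.352 to 0.011 for Gria3, -0.124 to 0.115 for Gria4, -0.061 to 0.084 for Grik2 and -0.369 to 0.209 for Grik3. In stress mice they ran from -0.103 to 0.010 for Gria1, -0.168 to 0.019 for Gria3, -0.117 to 0.0082 for Gria4, -0.118 to 0.028 for Grik1, -0.086 to 0.015 for Grik3 and -0.053 to 0.194 for Grik5, and in ethanol + stress mice from -0.036 to 0.131 for Grik2.

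Flip-share effects of ethanol moved between -1.59 and 0.245 percentage points in Gria1, -1.42 and 0.018 in Gria2, -5.30 and -1.79 in Gria3 and -1.60 and 3.56 in Gria4. For stress the ranges were -1.78 to -0.029 in Gria1, -0.415 to 1.03 in Gria2, -7.72 to -4.21 in Gria3 and 1.05 to 5.89 in Gria4. The stress effect on the log2 ratio of kainate to AMPA sums ran from -0.059 to 0.114, and was -0.0023 with protein-coding transcripts alone. The share of Grik2 moved between -0.674 and 1.63 points for ethanol and -0.608 and 1.58 for stress, and that of Gria4-203 between 0.865 and 2.98 for ethanol and -1.61 and 0.503 for stress.

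Replicate numbers did not pair the libraries: deviations from group means correlated at -0.173 to 0.164 between libraries of the same number. With the replicate block no gene or transcript count left 0. For flip shares and ratios the block was another exact test, with labels exchanged within pairs of the same replicate number. The stress effect on the Gria3 flip share stayed at -5.95 points and that on the log2 ratio of Gria1 to Gria2 at 0.069. Each had an exact p = 0.0313 in this paired test, unadjusted, which is the smallest it can give. Since the numbers do not pair the libraries, no conclusion is drawn from it. Grik1 and Grik3 had the fewest recovered read pairs, 214 to 286 and 267 to 986 a library, and the division of Grik1 among transcripts could not be read.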
